A study of Rattus norvegicus with 32 samples.

Results

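The genes described here are 9 metabotropic serotonin receptors, Htr1a, Htr1b, Htr2a, Htr2c, Htr4, Htr5a, Htr5b, Htr6 and Htr7, found by their symbols among the 32883 entries of the hippocampal count tables. Each symbol matched a single entry in both tables. Hippocampal RNA of 32 Sprague-Dawley rats was sequenced at P65, in adulthood, with 4 rats in each of 4 diet groups of each sex. In males the groups were iron-sufficient (IS), iron-sufficient with choline (ISch), formerly iron-deficient (FID) and formerly iron-deficient with choline (FIDch). The dams of the FID and FIDch males ate an iron-deficient diet from early gestation to the first postnatal week. The choline dams ate added choline during later gestation. All dams and litters had an iron-sufficient diet after the first postnatal week, and the study's methods place P65 after complete repletion of brain iron. The study's methods state a single male per litter for each experiment. Females carried the labels IS, ISch, ID and IDch for the corresponding diets. The study's methods give the feeding schedule for dams and litters and state that only male offspring were used. The diets of these females are therefore taken from their labels. All females were sequenced in batch II with one RNA extraction kit and all males in batch I with another, so sex, batch and kit cannot be told apart, and every diet comparison was made within a batch.

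Serotonin reaches the hippocampus through axons of raphe neurons, whose cell bodies lie in the brainstem, so most serotonin receptor mRNA in this tissue belongs to the neurons that receive the signal. Htr1a, Htr1b and Htr5a encode receptors coupled to Gi/o proteins, which lower cAMP, as does, less well characterized, the related Htr5b. Htr2a and Htr2c encode receptors coupled to Gq and phospholipase C, and Htr4, Htr6 and Htr7 encode receptors coupled to Gs, which raises cAMP. Htr1b protein sits largely on axon terminals and limits transmitter release, Htr1a is prominent on pyramidal cells, and Htr2c is also the abundant serotonin receptor of the choroid plexus.

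Per library, 3515806 to 9517503 reads were counted on genes in males and 18439999 to 26616318 in females. Values are given as CPM, counts scaled to the library total, after TMM normalization within each sex, and 3 counts, the limit that a count of 0 allows for counting error only, correspond to 0.31 to 0.85 CPM in males and 0.11 to 0.16 CPM in females. Markers of the hippocampal fields were present in each library, with summed levels of 299 to 742 CPM for the CA1 markers and 209 to 388 CPM for the dentate gyrus markers. The 4 raphe markers, all found, summed to 7.95 to 15.0 CPM in males, mostly from the vesicular transporter Slc18a2, and to 1.69 to 4.00 CPM in females, mostly from Tph2, while Fev and Slc6a4 reached at most 1 and 9 counts. Of the 6 habenula markers 5 were found, with sums of 0.87 to 6.69 CPM, mostly from Chrna3 and Chrnb4, and at most 1 count of Pou4f1. A single library stood apart by its choroid plexus markers, male FID replicate 4, with a sum of 427 CPM over the 11 genes against 8.00 to 21.2 CPM in the other FID males and 3.87 to 8.20 CPM in the remaining male libraries. In bulk tissue, fewer cells of a type and less RNA per cell cannot be told apart.

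Of the 9 receptors, 8 passed the expression filter in each comparison, and Htr7 passed in none. Htr7 had 0 counts in 15 of 16 males and 2 counts in FIDch replicate 3. In females it had 1 count in each IS rat, 0 or 1 in ISch, 0 to 3 in ID, and 10, 8, 3 and 0 counts in the IDch rats. Of the IDch values, 3 were thus at or above the 3 counts that a count of 0 allows, the highest at 0.392 CPM, and no test of Htr7 was made. The remaining receptors had at least 10 counts in each library, that minimum belonging to Htr6 in FIDch replicate 2, the shallowest male library.

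**Figure D1:**
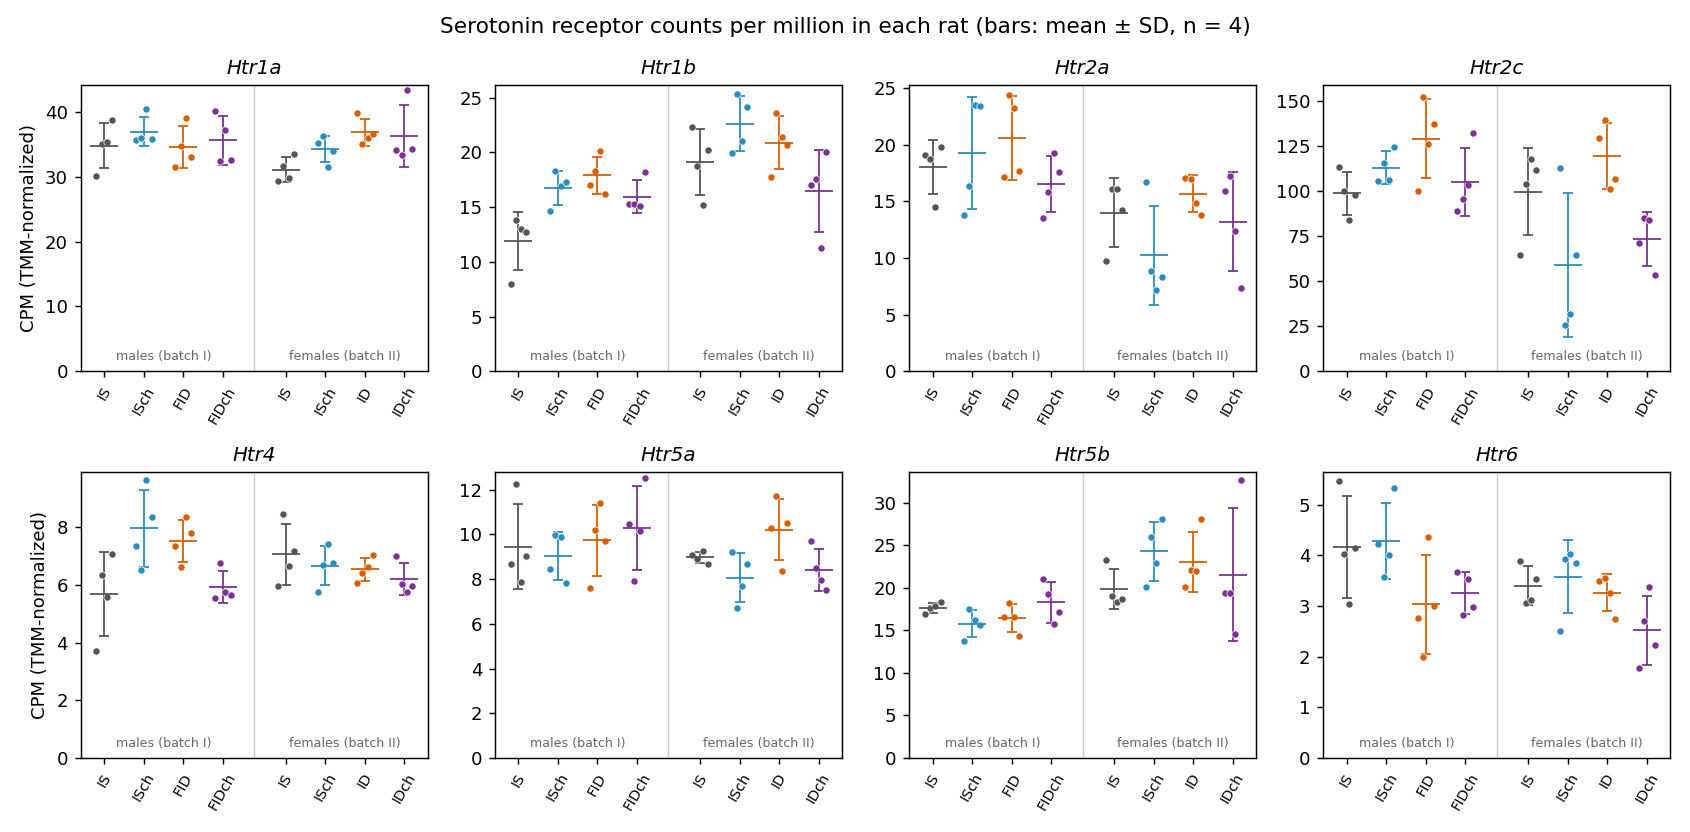
Level of each tested receptor in each rat, in TMM-normalized CPM (vertical axis, starting at 0 and scaled per gene), by diet group, with males of batch I on the left and females of batch II on the right of each panel. Points are rats, and bars give the mean and SD of 4 rats. The 4 male IS rats lie below the other males for Htr1b, and the female ISch rats spread from 25.8 to 113 CPM for Htr2c.

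Comparisons were read with one criterion throughout, with the study's thresholds: a gene was called when its absolute log2 fold change exceeded 0.2 and its unadjusted p was under 0.05, here in edgeR's quasi-likelihood test, with the Benjamini-Hochberg adjusted p over all tested genes beside it. The male comparisons with IS share the IS libraries, as do the female ones, so their calls are not independent of each other. The interactions and the differences between the sexes use the same IS libraries again, and their calls are not independent of these. Sequence upstream of Htr1b and Htr2c, the receptors with the clearest differences in males and females, is shown for orientation, as the 250 bases before the gene start in RefSeq's annotation of assembly GRCr8, in the direction of transcription and with each CG dinucleotide in capitals.
Htr1b, minus strand, chr8:91414816-91415065: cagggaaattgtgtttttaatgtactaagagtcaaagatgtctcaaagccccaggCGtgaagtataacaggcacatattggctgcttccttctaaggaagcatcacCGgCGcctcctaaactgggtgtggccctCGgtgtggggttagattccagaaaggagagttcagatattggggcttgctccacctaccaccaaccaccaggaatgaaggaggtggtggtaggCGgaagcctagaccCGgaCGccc
Htr2c, plus strand, chrX:115452940-115453189: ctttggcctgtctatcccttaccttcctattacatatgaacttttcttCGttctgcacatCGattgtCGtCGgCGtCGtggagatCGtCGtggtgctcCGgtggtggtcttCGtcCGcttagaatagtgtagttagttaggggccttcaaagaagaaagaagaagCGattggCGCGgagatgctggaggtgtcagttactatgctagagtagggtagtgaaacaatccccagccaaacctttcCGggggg
The Htr1b window held 7 CG dinucleotides, a number that 45.2% of the 33469 rat promoter windows reached, and the Htr2c window held 15, which 25.8% reached. The GC box GGGCGG, searched on both strands, was in neither window and in 30.5% of all windows. DNA methylation was not measured in these libraries.

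Htr1b, whose receptor sits largely on axon terminals, was higher than in IS in each of the other male groups. The IS males had 7.95, 13.8, 13.02 and 12.7 CPM. The FID males had 17.0, 18.3, 20.1 and 16.2 CPM, the FIDch males 15.3, 15.3, 15.1 and 18.2 CPM, and the ISch males 14.6, 18.3, 16.9 and 17.3 CPM. No rat of these 3 groups overlapped with IS, whose replicate 1 was the lowest of all 16 males. By mean the order was IS (11.9 ± 2.66 CPM, SD, n = 4), FIDch (16.0 ± 1.47), ISch (16.8 ± 1.55) and FID (17.9 ± 1.70), and the ranges of the last 3 groups overlapped each other.

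The log2 fold change of Htr1b against IS was 0.60 in FID (standard error 0.16, adjusted p = 0.786, edgeR), or 1.51-fold. It was 0.51 in ISch (standard error 0.16, adjusted p = 0.354) and 0.44 in FIDch (standard error 0.16, adjusted p = 0.499). The 2-sided exact permutation test gave p = 0.029 in each case, the smallest value that 4 rats against 4 can give. Each of the 3 differences thus met the criterion, and none had an adjusted p under 0.05. Groups that did not overlap were found for 3.52% of all tested genes in FID against IS, for 6.15% in ISch against IS and for 5.32% in FIDch against IS. Without IS replicate 1 the FID value was 0.44, which met the criterion, and without FIDch replicate 4 the FIDch value was 0.37, which did not.

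Both diets accompanied more Htr1b against IS and their combination was no higher than either. With the same IS libraries, this pattern by itself gives a negative interaction, so the interaction is not separate evidence. The difference between the choline effects was tested itself. Choline changed Htr1b by 0.51 on the log2 scale in iron-sufficient males and by -0.18 in formerly iron-deficient males (FIDch against FID, standard error 0.11, adjusted p = 0.414). The interaction over the 16 males was -0.67 (standard error 0.19, adjusted p = 0.169), and it met the criterion in each of the 21 alternatives, between -0.76 and -0.51.

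Females had a different order of Htr1b levels. IS females had 22.3, 18.7, 15.2 and 20.2 CPM, ISch females 19.97, 25.3, 21.1 and 24.2, ID females 17.8, 23.6, 21.4 and 20.7, and IDch females 17.0, 17.6, 11.2 and 20.01. Each of the other 3 groups overlapped with IS. No female comparison with IS met the criterion, with log2 fold changes of 0.12 in ID (95% interval -0.12 to 0.37), 0.24 in ISch (-0.02 to 0.50) and -0.21 in IDch (-0.58 to 0.15). IDch was lower than ID by the criterion (-0.34, standard error 0.15, p = 0.0481, adjusted p = 0.273, exact permutation p = 0.057). That call was lost with any of 6 libraries left out, ID replicates 2, 3 and 4 and IDch replicates 1, 2 and 3, where the value was -0.38 to -0.20, the latter without IDch replicate 3.

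The interaction of iron and choline on Htr1b in females was -0.58 (standard error 0.21, adjusted p = 0.427), and it met the criterion in each of the 20 alternatives. The effect of early iron deficiency on Htr1b was larger in males than in females by 0.49 (standard error 0.22, adjusted p = 0.52), a call lost without male IS replicate 1 (0.31), male FID replicate 3 (0.43), female IS replicate 1 (0.41) or 4 (0.46) or female ID replicate 1 (0.42). For FIDch and IDch against IS the male value exceeded the female one by 0.65 (standard error 0.22, adjusted p = 0.133).

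**Figure D2:**
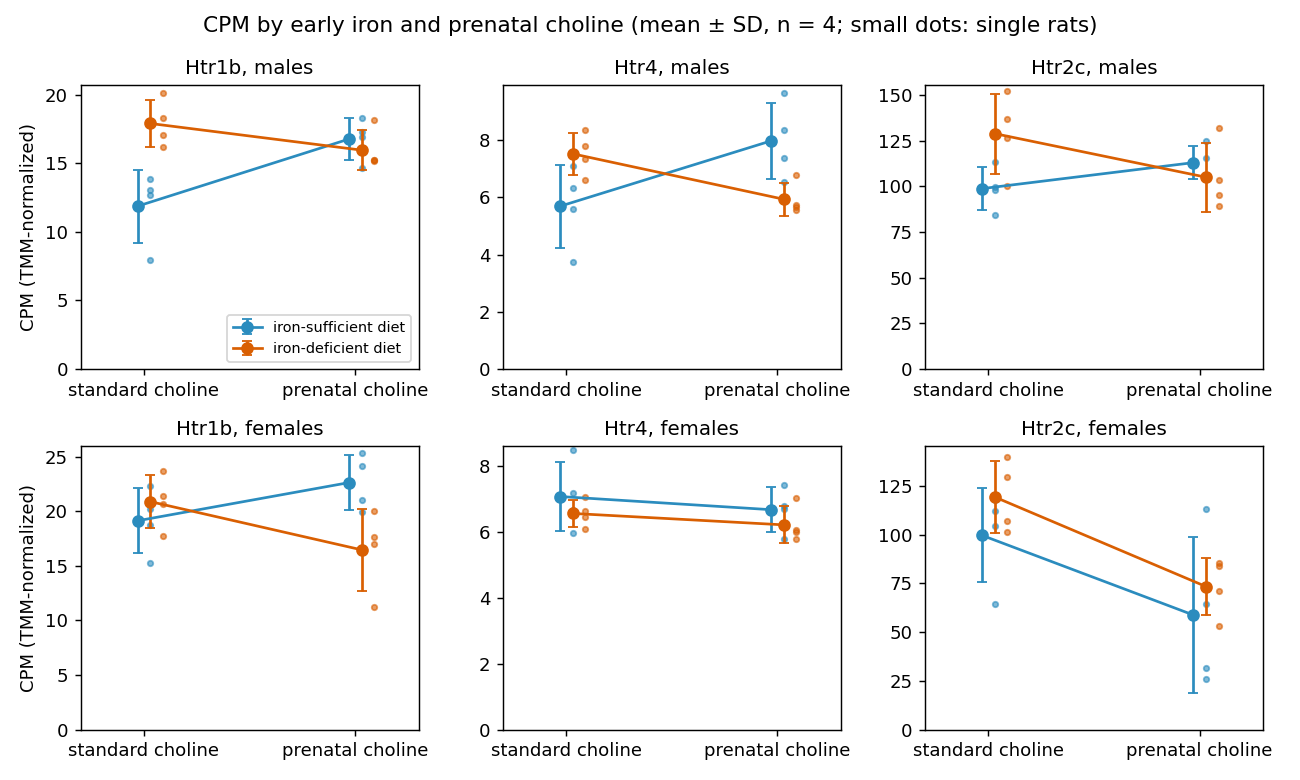
CPM of Htr1b, Htr4 and Htr2c (vertical axes, from 0) in males (upper panels) and females (lower panels), with the standard-choline groups on the left and the prenatal-choline groups on the right of each panel. Large points and bars are the mean and SD of 4 rats, small points are rats, and lines join groups of the same early iron supply, blue for iron-sufficient and orange for iron-deficient. The lines cross for Htr1b, Htr4 and Htr2c in males and for Htr1b in females.

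Htr1a, the inhibitory receptor of pyramidal cells, was even across the male groups: IS males had 34.8 ± 3.52 CPM, FID males 34.6 ± 3.28, ISch males 37.0 ± 2.30 and FIDch males 35.6 ± 3.74 (SD, n = 4 each). Its male log2 fold changes against IS lay between -0.01 and 0.09, with 95% intervals inside -0.23 to 0.29. Female IS rats had 29.3, 31.6, 29.8 and 33.6 CPM, and ID rats had 39.8, 35.0, 36.0 and 36.5 CPM. These groups did not overlap, as was so for 6.49% of the genes tested. The difference was 0.25 (standard error 0.061, p = 0.00162, adjusted p = 0.144, exact permutation p = 0.029), and its adjusted p lay between 0.042 and 0.427 over 13 alternatives, each of which kept the criterion.

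IDch females had 34.1, 33.4, 43.5 and 34.3 CPM of Htr1a, 0.22 above IS (standard error 0.089, adjusted p = 0.319). The groups overlapped, and the call was lost without IDch replicate 3 (0.13), IS replicate 1 (0.19) or IS replicate 3 (0.20). ISch females, at 34.2 ± 2.01 CPM, differed from IS by 0.13 (adjusted p = 0.322) and did not meet the criterion. The iron effect on Htr1a differed between the sexes by -0.24 (male minus female, adjusted p = 0.611), which did not meet the criterion.

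Htr5a and Htr5b, whose receptors are the least studied of the family, differed little between male groups. For Htr5a, IS males had 9.46 ± 1.92 CPM, FID males 9.73 ± 1.58, ISch males 9.04 ± 1.06 and FIDch males 10.3 ± 1.88. For Htr5b, the values were 17.7 ± 0.602 CPM (IS), 16.4 ± 1.64 (FID), 15.8 ± 1.54 (ISch) and 18.3 ± 2.36 (FIDch). No male comparison of either gene met the criterion. Htr5a, like Htr4 and Htr7, overlaps an uncharacterized gene in the RefSeq annotation, and with a library kit that does not mark strand, reads of overlapping genes on opposite strands cannot be told apart.

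In females, Htr5b was higher in ISch (20.1, 25.9, 23.0 and 28.1 CPM) than in IS (23.3, 19.1, 18.4 and 18.7 CPM) by 0.29 (standard error 0.11, adjusted p = 0.224). The groups overlapped through IS replicate 1. The call was lost with the 4 groups in one fit (0.29), with a replicate block (0.29) and without IS replicate 2, 3 or 4 or ISch replicate 2 or 4, where the value was 0.21 to 0.27. Htr5a was lower in IDch (9.69, 8.50, 7.98 and 7.50 CPM) than in ID (10.3, 11.7, 8.37 and 10.5 CPM) by 0.28 on the log2 scale (log2 fold change -0.28, standard error 0.12, adjusted p = 0.254). These groups overlapped too, and the call was lost without ID replicate 1, 2 or 4 or IDch replicate 2, 3 or 4, at -0.29 to -0.21.

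Htr2c, a Gq-coupled receptor that limits neuronal excitability and dopamine release, gave the only receptor difference between 2 groups with an adjusted p under 0.05. ID females had 130, 140, 101 and 107 CPM, and IDch females had 71.1, 85.3, 83.8 and 53.4 CPM. The groups did not overlap, as was so for 11.9% of the genes tested. The log2 fold change of IDch against ID was -0.70 (standard error 0.15, p = 0.000516, adjusted p = 0.0335, exact permutation p = 0.029), or 0.614-fold. The criterion was met in each of 13 alternatives, from -0.79 to -0.58, while the adjusted p ranged from 0.000121 to 0.238 and was under 0.05 in 7 of them; 2.28% of the genes tested had an adjusted p under 0.05 in this comparison.

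IS females lay between, at 64.5, 104, 118 and 112 CPM of Htr2c, and ISch females were spread widely, at 113, 25.8, 31.8 and 64.6 CPM. ISch replicate 1 alone was within the range of the upper IS rats. IDch was lower than IS by the criterion (-0.44, standard error 0.19, adjusted p = 0.349), a call lost without IS replicate 2, 3 or 4 or IDch replicate 1 or 4 (-0.43 to -0.32), with the 4 groups in one fit (-0.44) and in DESeq2 (-0.44). ISch differed from IS by -0.76 (95% interval -1.60 to 0.08), and ID from IS by 0.26 (-0.08 to 0.59). The coefficient of variation of Htr2c was 68.0% in ISch females against 15.3% in ID females.

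The summed dentate gyrus markers, all 6 of 6 found, were 313 to 354 CPM in IDch and 338 to 388 CPM in ISch females, against 258 to 278 CPM in ID and 253 to 297 CPM in IS. The choline groups thus lay above the others without overlap. Their part in the lower Htr2c of IDch was not tested. The choroid plexus sum was 4.92 to 6.43 CPM in IDch, 5.6 to 19.4 CPM in ID and 4.68 to 9.95 CPM in the other females, and its defining factor Otx2 had 0 counts in all 32 libraries.

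Male FID rats had 100, 152, 126 and 137 CPM of Htr2c, and male IS rats had 113, 99.8, 84.2 and 98.0 CPM. The groups overlapped through FID replicate 1. FID was higher by 0.38 (standard error 0.12, p = 0.00782, adjusted p = 0.786, exact permutation p = 0.057), and the criterion was met in each of 13 alternatives. The choroid plexus sum was 10.7, 21.2, 8.00 and 427 CPM in the FID rats and 4.73 to 7.42 CPM in the IS rats. All 4 FID rats thus lay above IS in this sum. Only Ttr of these markers passed the expression filter in this comparison (log2 fold change 5.80, adjusted p = 0.786, edgeR). Without replicate 4 the difference in Htr2c was 0.36 and met the criterion, and the part of the markers in the other 3 rats was not tested.

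Male FIDch rats had 89.1, 95.5, 104 and 132 CPM of Htr2c, 0.30 below FID (log2 fold change -0.30, standard error 0.13, adjusted p = 0.25). The call was lost without any of FID replicates 2, 3 and 4 and FIDch replicates 1, 2 and 3, at -0.32 to -0.21, so that 6 of the 8 libraries each decided it. The choroid plexus sum was 3.87 to 5.65 CPM in FIDch, below all 4 FID rats, and its part in this difference was not tested. ISch males, at 113 ± 8.97 CPM, differed from IS by 0.19, under the fold limit of the criterion. The interaction in males was -0.49 (standard error 0.17, adjusted p = 0.224) and met the criterion in each of 21 alternatives, while in females it was 0.06 (95% interval -0.91 to 1.02).

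Over all 32 libraries with batch as a term, prenatal choline was accompanied by less Htr2c (-0.40, standard error 0.14, adjusted p = 0.151), and the call held in each of 35 alternatives. The direction was not shared by each part of the design, since ISch and IS males differed by 0.19 the other way. The male ISch effect exceeded the female one by 0.95 (standard error 0.38, adjusted p = 0.211). The gene hosts 6 small RNA genes in the RefSeq annotation, Snora35, Mir3552, Mir764, Mir1912, Mir1298 and Mir448, and their reads within exons of Htr2c, if any, cannot be told apart from its own.

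Htr2a, the Gq-coupled receptor of cortical pyramidal cells and some interneurons, had 18.0 ± 2.38 CPM in IS and 20.6 ± 3.73 in FID males, and with choline 19.3 ± 4.96 (ISch) and 16.5 ± 2.45 (FIDch). FIDch was lower than FID (-0.33, standard error 0.14, adjusted p = 0.258), with overlapping groups. The call was lost in DESeq2 (-0.32), with the 4 groups in one fit (-0.32) and without FID replicate 2 or 3 or FIDch replicate 1, 2 or 4 (-0.35 to -0.22). Females had 14.0 ± 3.01 CPM in IS, 10.3 ± 4.37 in ISch, 15.7 ± 1.62 in ID and 13.2 ± 4.40 in IDch, and no female comparison met the criterion. As for Htr2c, ISch replicate 1 stood above the other ISch females, at 16.7 CPM against 7.21 to 8.81.

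**Figure D3:**
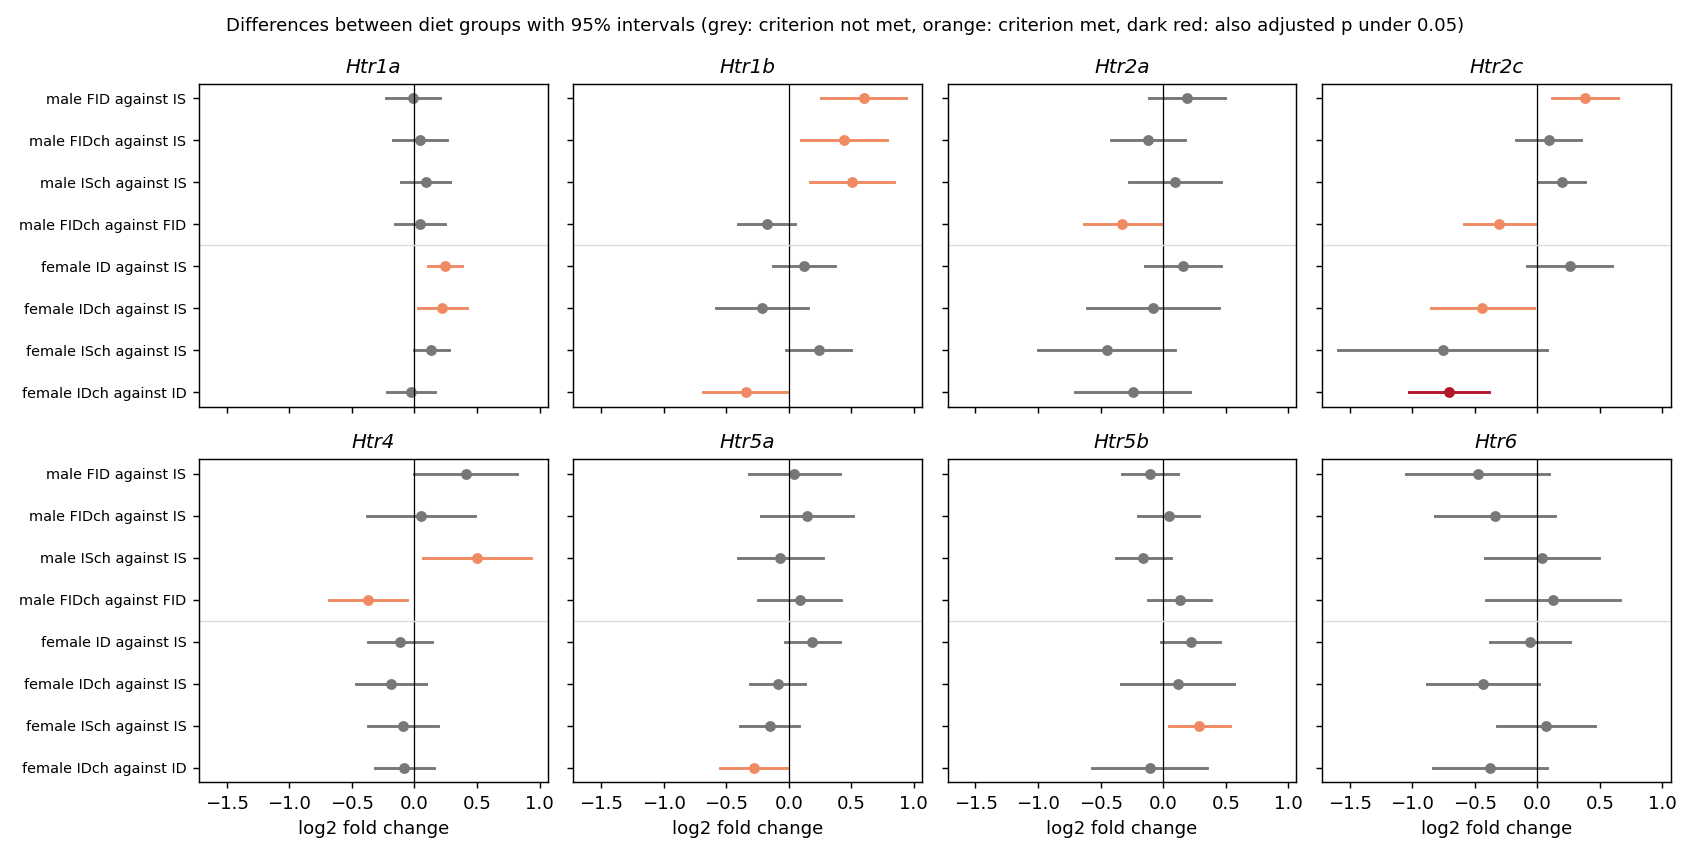
Log2 fold change (horizontal axis) with its 95% interval for each receptor in the 4 male and 4 female comparisons, from edgeR. Grey marks differences outside the criterion, orange those that met it and dark red the one that also had an adjusted p under 0.05, Htr2c in female IDch against ID at -0.70.

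Htr4, a Gs-coupled receptor of pyramidal and granule cells, had low counts, 24 to 80 per male library, which may include reads of the uncharacterized gene that overlaps it. IS males had 3.73, 6.34, 5.6 and 7.09 CPM, ISch males 7.37, 6.54, 9.64 and 8.36, FID males 7.34, 6.62, 8.35 and 7.80, and FIDch males 5.55, 6.78, 5.75 and 5.66. ISch and FID were high, IS and FIDch low, and each pair of groups overlapped. ISch was above IS by 0.50 (standard error 0.20, adjusted p = 0.451), a call lost without IS replicate 1 (0.33), ISch replicate 3 (0.40) or ISch replicate 4 (0.47). FID was 0.41 above IS (adjusted p = 0.786) and missed the p limit of the criterion.

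FIDch males had less Htr4 than FID males (-0.37, standard error 0.14, adjusted p = 0.205), and the call was lost in DESeq2 (-0.36), with the 4 groups in one fit (-0.36) and without FID replicate 3 or FIDch replicate 1, 3 or 4 (-0.36 to -0.32). The interaction of iron and choline was -0.86 (standard error 0.24, adjusted p = 0.164), with 21 of 21 alternatives at the criterion and values from -1.09 to -0.69. Female Htr4 varied less, at 7.06 ± 1.06 CPM in IS, 6.66 ± 0.677 in ISch, 6.55 ± 0.404 in ID and 6.2 ± 0.561 in IDch, and no female comparison met the criterion. The male effect exceeded the female one by 0.54 for early iron deficiency (standard error 0.20, adjusted p = 0.457), a call lost without male IS replicate 1 (0.35), and by 0.59 for choline in iron-sufficient rats (standard error 0.20, adjusted p = 0.141).

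Htr6, a Gs-coupled receptor found mainly in the forebrain and on neuronal cilia, had 10 to 51 counts per male and 45 to 86 per female library. IS males had 5.46, 4.03, 3.03 and 4.14 CPM, FID males 2.77, 1.995, 4.35 and 3.0, FIDch males 3.66, 2.83, 3.54 and 2.98, and ISch males 4.23, 3.57, 4.01 and 5.33. Females had 3.40 ± 0.389 CPM in IS, 3.57 ± 0.722 in ISch, 3.26 ± 0.370 in ID and 2.52 ± 0.687 in IDch. Groups overlapped in each of the 8 comparisons, and none of these met the criterion. Over all 32 libraries, early iron deficiency was accompanied by less Htr6 (-0.34, standard error 0.11, adjusted p = 0.85), and the criterion was met in each of the 35 alternatives, which included leaving out each library in turn. The 95% interval was -0.56 to -0.13.

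Counted over the receptors, the calls were few and were read against the share of all tested genes that met the same criterion. In FID against IS, 2 of 8 receptors were called, both higher (Htr1b and Htr2c), where 4.62% of all genes were called. In ISch against IS, 2 were called, both higher (Htr1b and Htr4), against 8.06%, and in FIDch against IS 1 was called (Htr1b) against 6.12%. In FIDch against FID, 3 were called, all lower (Htr2a, Htr2c and Htr4), against 13% called in either direction and 7.24% called lower.

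Among females, 1 of 8 receptors was called in ID against IS (Htr1a, higher) against 6.47% of all genes, 2 in IDch against IS (Htr1a higher, Htr2c lower) against 8.98%, and 1 in ISch against IS (Htr5b, higher) against 10.3%. In IDch against ID, 3 were called, all lower (Htr1b, Htr2c and Htr5a), against 12.7% in either direction and 7.07% lower. All 8 receptors had a negative log2 fold change there, with a median of -0.26 where that of all genes was -0.0013, and 5 of the 8 did not meet the criterion. The same rats gave all 8 values and some receptors varied together across females, so the signs are not independent of each other. In the remaining 7 comparisons of 2 groups the receptors' median lay between -0.14 and 0.17.

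The interaction was called for 3 of 8 receptors in males (Htr1b, Htr2c and Htr4, all negative) against 14.4% of all genes, and for 1 in females (Htr1b) against 7.33%. Over both batches, 1 receptor was called for iron (Htr6) against 1.86% and 1 for choline (Htr2c) against 5.53%. The difference between the sexes was called for 2 receptors in the iron effect (Htr1b and Htr4) against 7.66%, for 1 in the effect of both diets (Htr1b) against 14.2% and for 2 in the choline effect (Htr2c and Htr4) against 14.2%.

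Among 5 other serotonin receptor genes, Htr3a, the ion-channel subunit, and Htr1f passed the filter, while Htr1d, Htr2b and Htr3b had at most 7 counts in any library. Htr3a was lower in ISch males (6.81 ± 0.756 CPM) than in IS males (10.1 ± 1.69 CPM) by the criterion (-0.57, standard error 0.15, adjusted p = 0.267), and neither gene was called in any other comparison of 2 groups. The male interaction of iron and choline was also called for Htr3a (0.76, standard error 0.22, adjusted p = 0.173, edgeR). Its sign was positive, opposite to that of Htr1b, Htr2c and Htr4, and 14.4% of all genes were called there. The serotonin-making enzyme Tph2 had mean levels of 1.53 to 2.14 CPM over the groups.

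Of the genes that handle serotonin or its cofactor, Slc29a4, a low-affinity monoamine transporter, was higher with choline in females. It had 29.1 ± 3.82 CPM in ISch against 15.8 ± 2.06 in IS (0.88, standard error 0.11, adjusted p = 0.0036) and 26.0 ± 1.86 in IDch against 16.1 ± 1.5 in ID (0.69, standard error 0.083, adjusted p = 0.003). In males it went the other way in ISch, at 15.4 ± 3.19 CPM against 22.2 ± 1.46 in IS (-0.52, standard error 0.14, adjusted p = 0.254), and the difference between the sexes was -1.39 (standard error 0.20, adjusted p = 0.00022). Qdpr, which regenerates the cofactor of serotonin synthesis, was higher in female IDch than in IS (0.40, adjusted p = 0.0158) and than in ID (0.25, adjusted p = 0.037). In males Qdpr was lower in FIDch than in IS by the criterion (-0.22, standard error 0.082, adjusted p = 0.52, edgeR). No gene of this list was called in FID against IS or in ID against IS, out of 10 tested in each.

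Of 11 tested genes of Gq coupling, the pathway downstream of Htr2a and Htr2c, 6 were called with a negative interaction of iron and choline in males. Gna14, Prkcb, Gnaq, Itpr1 and Plcb4 were among them, no call was positive, and none had an adjusted p under 0.05. Of all genes tested, 14.4% were called for this interaction, and 7.59% were called with a negative value. The list's median was -0.36 and that of all genes 0.01. Gna14, a Gq-family alpha subunit, had the largest of the called values at -0.91 (standard error 0.21, adjusted p = 0.131). Prkcb, an isoform of protein kinase C, was also lower in female IDch than in ID (-0.36, adjusted p = 0.0114). Negative calls for the male interaction were not particular to Gq coupling, and Htr2a itself was not called. Gnai1 and Kcnj3 of Gi/o coupling (-0.31 and -0.39) and Prkacb and Gnal of Gs coupling (-0.44 and -0.25) were called too. Among serotonin-handling genes and receptor partners, Slc29a4, Deaf1 and Cdk5 were called with positive values and Maoa with a negative one.

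Of 12 genes of Gi/o coupling, the potassium channel subunit Kcnj5 was lower in males in ISch and FIDch against IS and in FIDch against FID, by 0.45 to 0.72 on the log2 scale (log2 fold changes -0.45, -0.72 and -0.58), with adjusted p values of 0.464, 0.463 and 0.244. Kcnj9 and Rgs4 were higher in female ID than in IS (0.26 and 0.51, adjusted p = 0.0697 and 0.195). Of 16 entries of Gs coupling, Adcy8, a calcium-stimulated adenylyl cyclase, was higher in female ID than in IS (0.62, standard error 0.092, adjusted p = 0.017), and lower in IDch than in ID (-0.45, adjusted p = 0.0762). Gnal, the olfactory type of the Gs alpha subunit, was called in 5 of the 8 comparisons, lower in male FIDch against FID (-0.30) and higher in male FID against IS (0.22) and in female IDch against ID (0.38, adjusted p = 0.0271). Of 16 receptor partners and regulators, 3 were called in FIDch against FID, where 13% of all genes were, at most 2 were called in each of the other 7 comparisons, where 4.62% to 12.7% of all genes were, and none had an adjusted p under 0.05.

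Receptor levels also varied together across rats, mainly in the females. Over the 16 female libraries, log2 CPM of Htr1b was correlated with the log2 of the summed CA1 markers (Pearson's r = 0.87, Spearman's rho = 0.81, permutation p = 3e-05 and 0.0003, adjusted p = 0.0022 and 0.0154). Without the 2 libraries farthest from the median Htr1b level r was 0.71, and within diet groups it was 0.86. Of the 5 CA1 markers 4 were found, and Wfs1 made up most of the sum. In the 16 males r was 0.54 (rho = 0.45, permutation p = 0.0312 and 0.0853, adjusted p = 0.211 and 0.36), and 0.19 without the 2 farthest libraries. These relations were chosen after the values had been seen, 44 in each sex, and adjustment was over all 88.

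Htr5b was correlated with the CA1 marker sum in females as well (r = 0.84, rho = 0.81, permutation p = 5e-05 and 0.00035, adjusted p = 0.0022 and 0.0154). Without the 2 libraries farthest from the median Htr5b level r was 0.73, and within groups it was 0.89. Its male values were r = 0.53 and rho = 0.47 (permutation p = 0.0343 and 0.0683, adjusted p = 0.216 and 0.334). The CA1 sum itself ranged from 299 CPM in IDch replicate 3, the female with the least Htr1b and Htr5b, to 742 CPM in IDch replicate 4, the female with the most Htr5b. In males it ranged from 410 to 556 CPM. Its part in the diet differences of Htr1b and Htr5b was not tested.

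**Figure D4:**
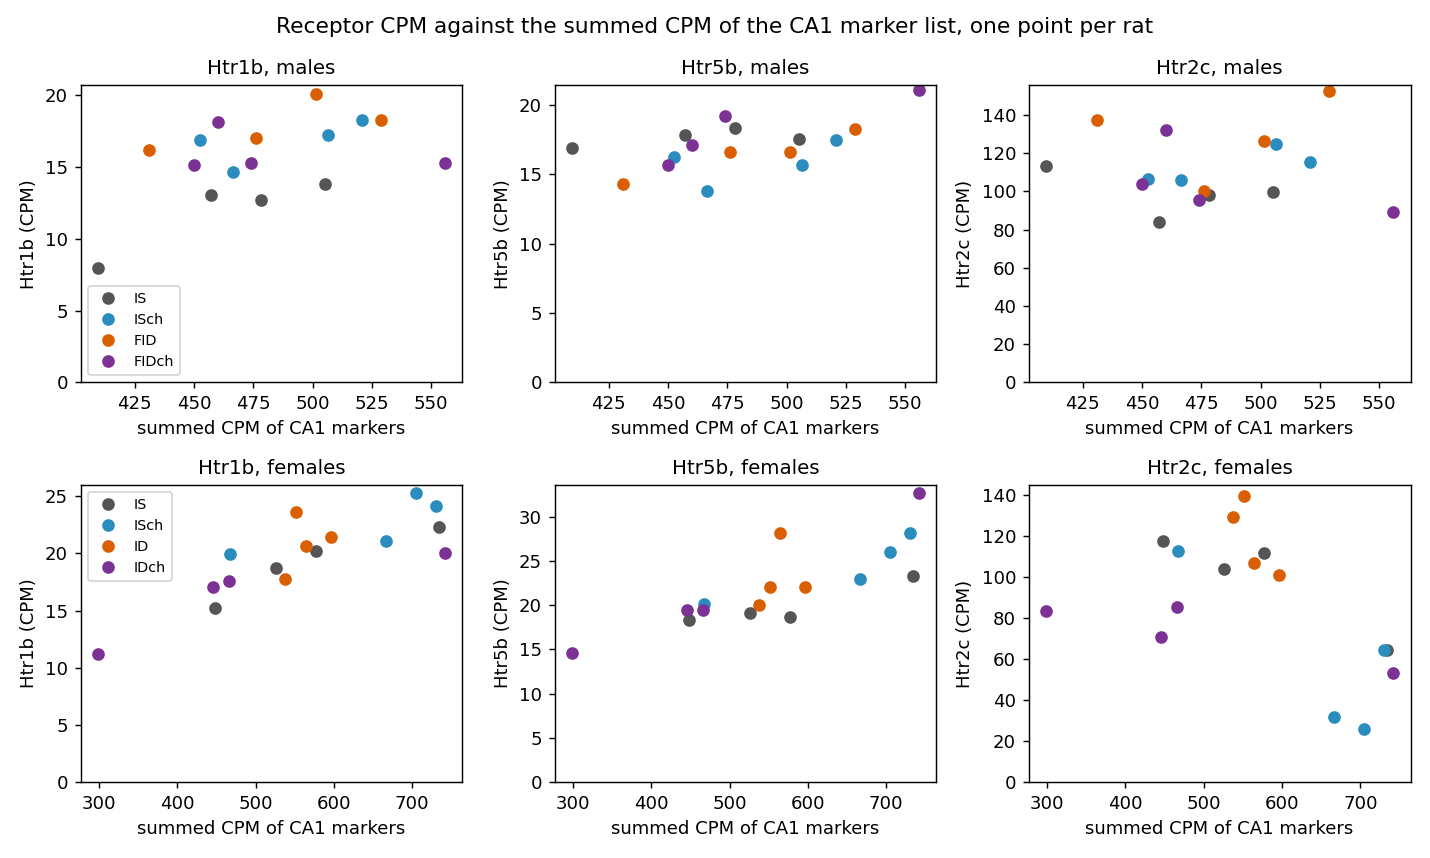
CPM of Htr1b, Htr5b and Htr2c (vertical axes, from 0) against the summed CPM of 4 CA1 markers (horizontal axes, which do not start at 0), one point per rat, coloured by diet group, males above and females below. In females Htr1b and Htr5b rise with the marker sum, and r is 0.87 and 0.84 on log2 values.

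Among the receptors themselves, Htr2a and Htr2c varied together in females (r = 0.83, rho = 0.79, permutation p = 0.00014 and 0.0006, adjusted p = 0.00411 and 0.0176), as did Htr2c and Htr5a (r = 0.78, rho = 0.74, permutation p = 0.00025 and 0.00153, adjusted p = 0.0055 and 0.0305) and Htr1b and Htr5b (r = 0.73, rho = 0.74, permutation p = 0.00115 and 0.00173, adjusted p = 0.0202 and 0.0305). Without the 2 libraries farthest from the median of the first-named receptor these r values were 0.77, 0.63 and 0.53. In males r was 0.60, 0.35 and -0.07 for the same pairs, and no male relation had an adjusted p under 0.05, the Htr2a and Htr2c pair being at 0.109 for r. Htr2c was negatively correlated with the dentate gyrus marker sum in females (r = -0.69, rho = -0.61, permutation p = 0.00198 and 0.0137, adjusted p = 0.029 and 0.12), but within diet groups r was -0.23.

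The genes most like each receptor were taken from the females, as the 2 with the highest r of log2 CPM over 16 libraries among 14974 genes, and then read in the males, which had no part in the choice. Female r, a description only, was 0.95 for Htr2a with Gnai1, 0.95 for Htr2c with Tpbg and with Kcnf1, 0.93 for Htr5b with Tspan13 and with LOC100125362, and 0.91 for Htr1b with Sidt1 and for Htr5a with Prkar1a. It was lower for Htr6 with C1qtnf9 (0.85), Htr4 with Rb1 (0.81) and Htr1a with Fam20a (0.78). In males 15 of the 16 pairs could be computed, 12 had a positive r, and 0 had an adjusted p under 0.05. The male r was 0.60 for Htr4 with Rb1 (rho = 0.25, permutation p = 0.0209 and 0.349), 0.57 for Htr2a with Gnai1 (rho = 0.56, permutation p = 0.0212 and 0.0275) and 0.57 for Htr1a with Fam20a (rho = 0.52, permutation p = 0.0217 and 0.0411), each with an adjusted p of 0.108 for r. Without the 2 libraries farthest from the receptor's median these became 0.24, 0.38 and 0.52.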

How the data were processed

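The authors aligned reads of TruSeq RNA v2 libraries, a kit that does not mark strand, with HISAT2 to Rnor_6.0 and deposited raw featureCounts counts per gene, 1 table per sex; the strand setting and the treatment of multiply matching reads are not given in the sources used here. Groups came from the labels. edgeR 4.0.16, run under R 4.3.3, was fitted to every pair of groups on its own (TMM, filterByExpr, glmQLFit, glmQLFTest). The interaction used the 16 libraries of a sex, and the other models all 32. CPM were computed per sex. Depth, and with it precision, was lower in males. Correlations used log2 CPM and 100000 permutations in Python 3.11.15 with scipy 1.17.1. Alternatives were DESeq2 1.42.0, RLE factors, all genes with at least 1 count, the 4 groups in one fit, a replicate block and each library left out. Male ISch replicates 1 and 2, whose library names share a stem, were also left out together. In the male interaction FIDch replicate 2 was left out with them. The labels do not say whether those 2 ISch rats were littermates. The fits were tested on simulated data. Members, lists and tests were chosen with earlier results of these data known. Named genes were the receptors, up to 5 called genes of each list with the smallest p per comparison, and 2 like genes per receptor. Same-numbered libraries of different groups did not deviate together, with 3 of 24 male and 1 of 24 female pairs over a correlation of 0.1. Over 48 replicate pairs the chi-square per gene was 2.02 to 25.2 times counting noise, so no library was counted as a repeat. Positions in the counts' own build and gene lengths were not used here, so levels are not compared between genes. Nothing in the labels says that females came from separate litters, and p-values cover the spread between these rats. Some results are not reported here.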

Additional observations from a re-analysis of the deposited data

Results flagged for a closer look

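In 69 groups of 4 rats, 8 had a rat whose gap to its neighbour exceeded Dixon's 95% critical share of the group's range, where chance gives about 1 in 20. Htr1a was high in female IDch replicate 3 (43.5 CPM, the others 33.4 to 34.3) and in male ISch replicate 3 (40.4 CPM, the others 35.7 to 36.0). Htr1b was high in male FIDch replicate 4 (18.2 CPM, the others 15.1 to 15.3), and Htr2a in female ISch replicate 1 (16.7 CPM, the others 7.21 to 8.81). Htr5b was high in female IS replicate 1 (23.3 CPM, the others 18.4 to 19.1), and Htr6 was low in female ISch replicate 1 (2.50 CPM, the others 3.85 to 4.03). Htr4 in male FIDch replicate 2 (6.78 CPM, the others 5.55 to 5.75) rested on 24 counts in the shallowest library, and Htr7 in male FIDch replicate 3 (0.221 CPM, the others 0) on 2 counts. With the others at 0, any count above 0 spans the whole range, so this Htr7 case was flagged by construction. It is still among the 8, and other Htr7 groups near 0 are among the 69. Female ISch replicate 1 was thus set apart for both Htr2a and Htr6.

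Of 40 tested differences between effects, 9 met the criterion, and none had an adjusted p under 0.05 in edgeR's test. Of all genes, 14.4% met it for the interaction in males and 7.33% in females. For the differences between the sexes the shares were 7.66% in early iron deficiency, 14.2% in both diets together and 14.2% in choline alone. The interaction of iron and choline was -0.67 for Htr1b (adjusted p = 0.169), -0.49 for Htr2c (0.224) and -0.86 for Htr4 (0.164) in males, and -0.58 for Htr1b in females (0.427). The male effect minus the female effect was 0.49 for Htr1b (0.52) and 0.54 for Htr4 (0.457) in early iron deficiency, 0.65 for Htr1b (0.133) in both diets together, and 0.95 for Htr2c (0.211) and 0.59 for Htr4 (0.141) in choline alone. Sex and sequencing batch cannot be told apart in the last 5.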

How the results depend on the processing

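Of 65 counts of called receptors under alternatives other than leaving out a library, 56 stayed within 1.5 times the reported count. The others were, in DESeq2, 1 for male FIDch against FID, 2 for female ID against IS and 1 for female IDch against IS; with the 4 groups in one fit, 1 for male FIDch against FID; and with all genes of at least 1 count, 2 for female ID against IS, 3 for female ISch against IS, 2 for iron and 3 for choline over both batches, where Htr7 with its few counts entered. With the replicate number as a block, female ISch against IS had 0 calls (1 without the block; Htr5b at p = 0.053), the other counts were 1 to 3 and within 1.5 times, and the same number gave the best correlation in 4 of 24 male and 5 of 24 female pairs of a library with another group. Leaving out each library gave 2 to 3 calls for male FID, 0 to 1 for FIDch and 1 to 3 for ISch against IS, 0 to 3 for FIDch against FID, 1 to 2 for female ID, 0 to 2 for IDch and 0 to 4 for ISch against IS, and 1 to 3 for IDch against ID. The interaction gave 3 to 4 calls in males and 1 to 3 in females, iron over both batches 1 throughout, choline 1 to 2, and the differences between the sexes 1 to 3, 1 throughout and 2 to 4 for iron, both diets and choline. Of 525 values for called receptors, 467 kept their call, 58 lost it and 0 changed sign; the cause was not tested. Low counts limit Htr4, Htr6 and Htr7 most. The gene model of Htr7 in the counts' own build was not checked, and no statement on Htr7 beyond its counts is possible in these libraries.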

Other observations

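Of the 9 receptors, 6 have a promoter window in the RefSeq table of assembly GRCr8. CG dinucleotides were most frequent in the 250 bases upstream of Htr7, the receptor with almost no counts, which held 38, a number that 1.7% of the 33469 rat windows reached. Htr6 followed with 22, reached by 13.7%, and after Htr2c came Htr5a with 11 and Htr5b with 10, reached by 33.6% and 35.9%, where the median of all windows was 5. The GC box GGGCGG, searched on both strands, was present once each in the windows of Htr5a and Htr5b. The cAMP response element core TGACG, also searched on both strands, was present once each in those of Htr5a and Htr7, and 18.2% of all windows held it. A match is a description of letters, and binding was not measured in these libraries.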
